A study of Mus musculus with 8 samples.

Results

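Translation initiation and elongation factors were taken as all protein-coding mouse genes whose symbol begins with Eif or Eef followed by a digit, pseudogenes left out. The annotation held 68 such genes, and 66 of them stood among the 37310 genes measured. Eif4e3 and Eef1akmt4 were not analysed here. Levels are given in FPKM, a count of sequenced fragments corrected for transcript length and expressed relative to each library's total. The test took in 61 of the 66, those at 1 FPKM or more in 4 or more libraries. The other 5 were Eif2ak2, Eif4ebp3, Eef1akmt3, Eef2kmt and Eef1a2, whose group means were at most 0.882 FPKM.

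The RNA came from mouse 2-cell embryos grown from fertilized eggs in G1, an embryo culture medium. Embryos of 4 libraries received 6 µM triclocarban (TCC), an antibacterial agent of soaps, and those of 4 control libraries received an equal volume of DMSO, its solvent. The labels give no strain, genotype, sex, number of embryos per library or hour of collection, and give no word on whether a group's libraries were separate cultures. Every p-value below therefore weighs a difference only against the variation among these libraries, and that variation may be technical. In such bulk RNA, fewer cells of a kind and less RNA per cell cannot be told apart.

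Initiation of translation starts when the cap-binding protein eIF4E, the scaffold eIF4G and the helicase eIF4A bring an mRNA to a small ribosomal subunit loaded with eIF1, eIF1A, eIF3 and eIF2. The exchange factor eIF2B recharges eIF2 with GTP, kinases that phosphorylate the eIF2 alpha subunit block that step, and the elongation factors eEF1 and eEF2 then carry the ribosome along the coding sequence. In the mouse, Eif1a is widely used as a marker of genome activation in the 2-cell embryo, and Eif4e1b encodes a cap-binding form of oocytes.

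The libraries differed in more than treatment. Depth, estimated only roughly from the spacing of low FPKM values, was 6940000 to 13600000 fragments in TCC libraries and 11300000 to 14800000 in controls, with TCC 2 the shallowest. At least 1 FPKM was reached by 11788 to 11957 genes in TCC libraries and by 12828 to 13541 genes in controls. Genes of the mitochondrial genome took 11.1 to 17.6% of all FPKM in TCC libraries and 16.6 to 24.3% in controls, with controls 3 and 4 the highest. The first principal component, with 69.1% of the variance, set the TCC libraries (-69.6 to -62.7) apart from the controls, of which 1 and 2 (27.8 and 36.5) lay nearer to them than 3 and 4 (102 and 97.8). On the second, TCC 2 stood apart from the other TCC libraries. Of 6 markers of the 2-cell embryo, all averaging at least 1 FPKM in both groups, 3 were lower in TCC libraries (Eif1a, itself a translation factor gene, Tdpoz4 and Zfp352) and 2 higher (Zscan4f and Zscan4c), with summed levels of 208 to 712 FPKM in TCC libraries and 448 to 576 FPKM in controls. Of 8 oocyte markers, 4 were higher and 1 lower in TCC libraries, their sum was 2617 to 3066 FPKM there and 671 to 1860 FPKM in controls, and none was at 0. Of 9 markers of cumulus and granulosa cells, 3 were tested (2 higher, 1 lower), the sum was 9.02 to 17.8 FPKM in TCC libraries and 4.65 to 8.99 FPKM in controls, and Amh was at 0 in all libraries. The lower gene, Tnfaip6, was below 1 FPKM in all TCC libraries and was tested through its controls alone. Of the higher genes, Fshr reached 1 FPKM in all TCC libraries but among controls only in control 1. Fshr thus passed the filter mainly through the TCC libraries, where it was high, and its groups overlapped. Of 6 blastocyst markers, 3 were tested (2 lower), and the sum was 7.86 to 14.05 FPKM in TCC libraries and 14.7 to 31.0 FPKM in controls. Of the lower genes, Sox2 reached 1 FPKM in all controls but among TCC libraries only in TCC 2. Sox2 thus passed the filter mainly through the controls, where it was high, and its groups overlapped. The part of these markers, of the mitochondrial share and of the gap between the controls in the results below was not tested.

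Most of the changed translation factor genes were lower in TCC embryos, among them most subunits of eIF3, while Eif1b, Eif4e1b and 4 others were higher. At an adjusted p under 0.05, 31 of the 61 genes fell (50.8%) and 6 rose (9.84%), against 30.8% lower and 11.3% higher among all 12941 genes tested. In either direction, 37 of the 61 changed, against 42.1% of all genes tested. The other 24 did not pass. The counts by role given below stand beside the same shares of all genes tested. The median difference in log2(FPKM + 1), TCC minus control, was -0.78 over the 61 genes and -0.19 over all genes tested, a gap of -0.59. All TCC libraries lay below all controls in 29 of the 61 genes, against 30.0% of all genes tested. They lay above all controls in 6 of the 61, against 10.2% of all genes tested. The 29 were all among the 31 genes that fell, and 5 of the 6 were among the genes that rose. The difference was at least 1 log2 unit in size in 26 of those that fell and in 5 of those that rose. The summed level of the 66 genes was 3835 ± 412 FPKM in TCC libraries and 4306 ± 438 FPKM in controls (SD, n = 4 each), or 0.713 ± 0.029% of all FPKM in TCC libraries and 0.757 ± 0.036% in controls.

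The split between higher and lower calls depended on the scaling and on which controls were used. With median-of-ratios scaling, under which the median of all genes was 0.06, 10 genes were higher and 24 lower. With quantile normalization, under which it was 0.13, 9 were higher and 25 lower. Controls 1 and 2 lay below controls 3 and 4 in 25 of the 31 genes that fell, and above them in 5 of the 6 that rose, Eef1e1 being the exception. Against controls 1 and 2 alone, 2 genes were higher and 21 lower, with a median of -0.51, beside -0.23 for all genes. Against controls 3 and 4 alone, 7 were higher and 33 lower, with a median of -0.96, beside -0.01 for all genes. The shares of all genes called were counted only with all libraries and without rescaling. These counts therefore cannot be set against a share of all genes. None of the 37 calls turned sign in any of these fits.

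**Figure D1:**
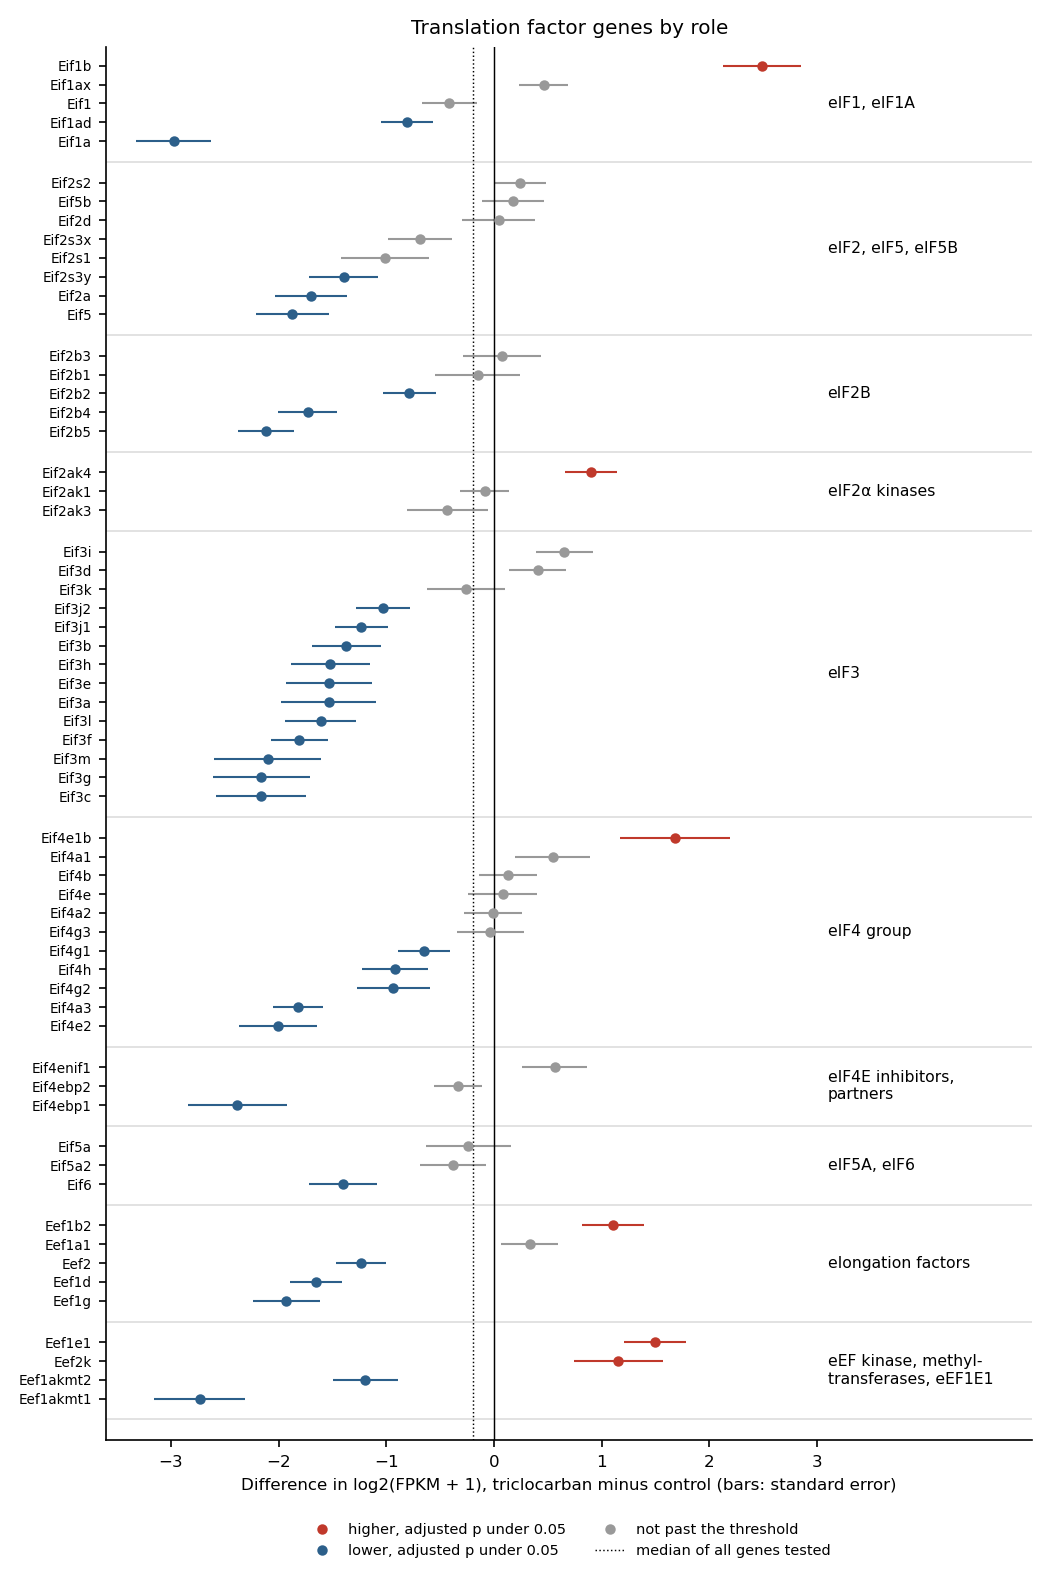
Difference in log2(FPKM + 1), TCC minus control, of the 61 tested genes, grouped by role. Points are limma estimates from 4 TCC and 4 control libraries, bars their standard errors, red marks higher and blue lower at an adjusted p under 0.05, and the dotted line is the median of all genes tested (-0.19). Eif1b lies farthest right at 2.49, Eif1a farthest left at -2.97, and 11 of the 14 eIF3 genes lie to the left in blue.

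Genes of start codon recognition by eIF1 and eIF1A changed in both directions. Of its 5 genes, Eif1b rose, Eif1a and Eif1ad fell (40.0%, against 30.8% of all genes tested), and Eif1 and Eif1ax did not pass. Eif1b (chromosome 9, 120492232 to 120495330, plus strand, GRCm38) encodes a close relative of eIF1, the factor that guards against starting at the wrong codon. Eif1b had 496, 439, 541 and 532 FPKM in TCC libraries 1 to 4, against 131, 154, 60.5 and 49.8 FPKM in controls 1 to 4. Every TCC library was high and the groups did not overlap, with controls 3 and 4 the lowest. The difference was 2.49 ± 0.36 (standard error, log2 scale; adjusted p = 0.000314). An antisense gene overlaps 12.7% of the exon bases of Eif1b, and with the strand setting of the authors' counting not given, its reads could not be told apart.

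Eif1 itself (chromosome 11, 100319885 to 100322096, plus strand) had 164, 156, 166 and 208 FPKM in TCC libraries, against 320.2, 222, 186 and 211 FPKM in controls. The groups overlapped, and the difference of -0.41 ± 0.25 did not pass (adjusted p = 0.212). Together, Eif1 and Eif1b summed to 675 ± 63.0 FPKM in TCC libraries and 334 ± 97.5 FPKM in controls, a ratio of 2.03. Eif1b made up 74.4 ± 1.96% of that sum in TCC libraries and 28.4 ± 9.25% in controls (SD, n = 4 each), so that the more abundant form was Eif1b in every TCC library and Eif1 in every control.

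Eif1a (chromosome 18, 46597701 to 46616456, plus strand) encodes a form of eIF1A, which works with eIF1 in scanning. Eif1a had 4.03, 3.47, 8.01 and 5.23 FPKM in TCC libraries, against 29.9, 33.2, 67.0 and 65.9 FPKM in controls. All TCC libraries were low, controls 1 and 2 lay between them and controls 3 and 4, and the difference was -2.97 ± 0.35 (adjusted p = 0.000109). Eif1ax, the form of eIF1A on the X chromosome (159372178 to 159389928, plus strand), had 28.9, 26.8, 25.3 and 26.9 FPKM in TCC libraries, against 17.1, 19.0, 23.9 and 17.7 FPKM in controls. Its TCC libraries all lay above the controls, yet the difference of 0.46 ± 0.23 did not pass (adjusted p = 0.126); both other scalings gave a call, of 0.75 by median of ratios (adjusted p = 0.0232) and 0.80 by quantiles (adjusted p = 0.0148). The sum of both was 32.1 ± 1.36 FPKM in TCC libraries and 68.4 ± 22.0 FPKM in controls, of which Eif1a made up 16.0 ± 5.75% in TCC libraries and 69.9 ± 7.60% in controls. The 2 genes are close copies, and how the authors divided reads between them is not given in the sources used here.

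Eif1ad, named for its eIF1A-like domain, averaged 16.4 ± 2.88 FPKM in TCC libraries and 29.3 ± 3.68 FPKM in controls (-0.81 ± 0.24, adjusted p = 0.0178). That call was lost without TCC 3 (adjusted p = 0.0509), control 3 (0.055) or control 4 (0.0583), under both other scalings (-0.52 and -0.47; adjusted p = 0.112 and 0.118) and against controls 1 and 2 alone (adjusted p = 0.0931). Banf1, on the other strand, overlaps 15.3% of the Eif1ad exon bases and averaged 281 FPKM in TCC libraries and 94.3 FPKM in controls.

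**Figure D2:**
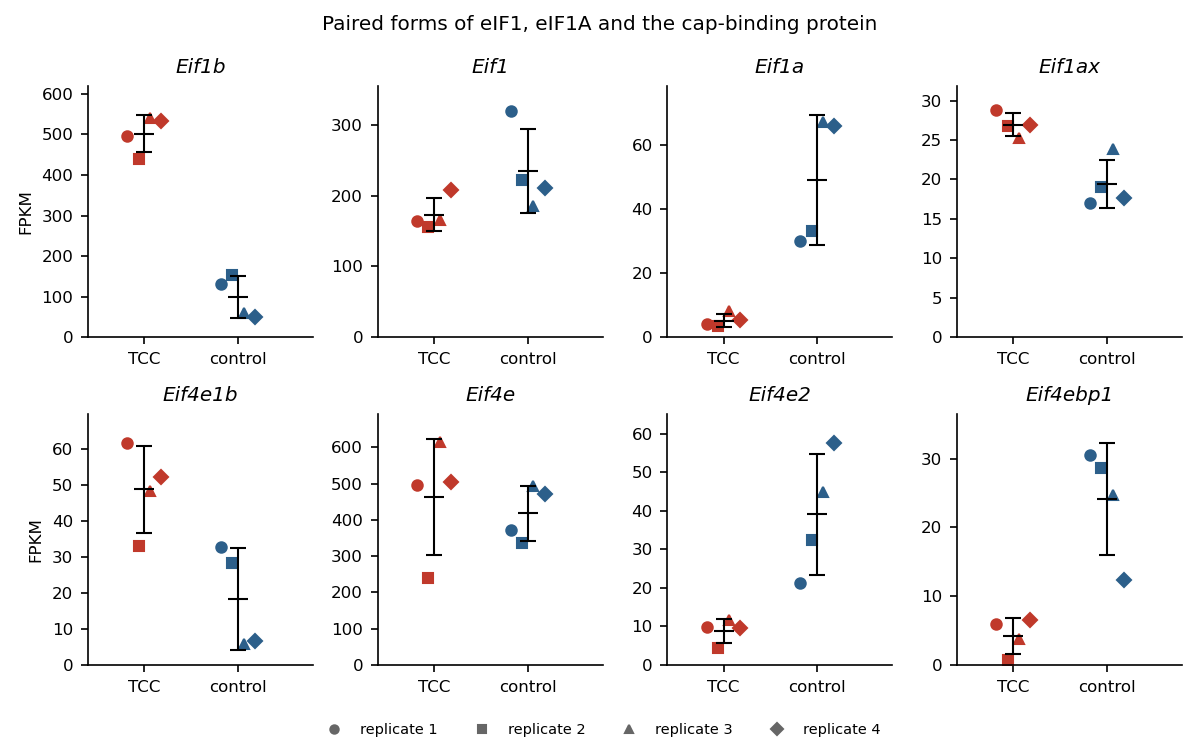
FPKM in each library (points, shaped by replicate) of 8 genes, with TCC libraries in red and controls in blue; lines are means and bars SD (n = 4 each). Eif1b lies at 439 to 541 FPKM in TCC libraries, above all controls, whereas Eif1a lies at 3.47 to 8.01 FPKM in TCC libraries, below all controls.

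The region before the RefSeq start of a gene is shown for the Eif1 pair because Eif1b rose while Eif1, the gene of a close relative, did not pass. Sequences are from RefSeq (GRCm38.p6), 100 bases upstream of the RefSeq start, on the gene's own strand. Eif1b is chr9:120492506-120492605 and Eif1 is chr11:100319849-100319948, both plus strand. RefSeq starts differ from the GENCODE gene coordinates given above. The Eif1b window lies wholly inside the gene as given there, which begins at 120492232. The Eif1 window runs past the start given there, 100319885. Capitals mark an E-box, CACGTG, which reads the same on both strands and occurs within 250 bases before to 50 after the start in 8.09% of 27025 genes.
Eif1b: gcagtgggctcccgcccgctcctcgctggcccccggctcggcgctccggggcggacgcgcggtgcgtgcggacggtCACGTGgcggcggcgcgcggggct
Eif1: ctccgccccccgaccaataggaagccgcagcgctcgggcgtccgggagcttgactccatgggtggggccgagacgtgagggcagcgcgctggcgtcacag
The Eif1b window held the E-box with its first base at position -24, and an ETS core (CCGGAAG) farther out, at -150. Neither motif was found in the Eif1 window. Both are matches of letters only.

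**Figure D3:**
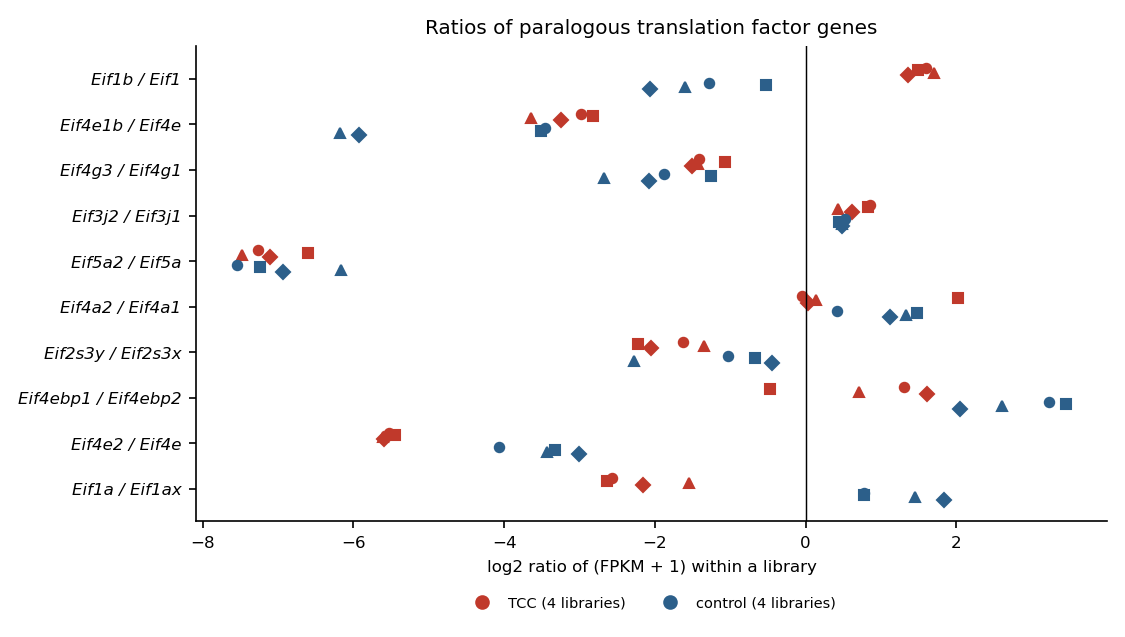
Log2 ratio of (FPKM + 1) of the first to the second gene of 10 pairs within each library, with 4 TCC libraries in red above 4 controls in blue, shaped by replicate as circle (1), square (2), triangle (3) and diamond (4). In Eif1b / Eif1 the TCC libraries lie at 1.35 to 1.70 and the controls at -2.06 to -0.53, and in Eif1a / Eif1ax the TCC libraries lie at -2.63 to -1.55 and the controls at 0.77 to 1.84.

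Ratios of paralogs within a library, which hardly depend on the scaling between libraries, were compared for 10 pairs. The log2 ratio of Eif1b to Eif1 averaged 1.53 ± 0.15 in TCC libraries and -1.37 ± 0.64 in controls (SD, n = 4 each), a difference of 2.90. That of Eif1a to Eif1ax averaged -2.23 ± 0.50 in TCC libraries and 1.21 ± 0.53 in controls, a difference of -3.44. The ratio of Eif4e2 to Eif4e differed by -2.09 and that of Eif4ebp1 to Eif4ebp2 by -2.05. In these 4 pairs the groups did not overlap, each with p = 0.0286 by an exact permutation test (two-sided), which is the lowest value 70 assignments allow, and an adjusted p of 0.0714. No pair thus passed the threshold. With only 4 of 10 pairs at that lowest value, none could pass after adjustment, however far apart the groups lay. Not passing therefore says nothing about the size of these 4 differences. In the other 6 pairs, Eif4e1b to Eif4e among them (1.599, exact permutation p = 0.0857), the groups overlapped.

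The cap-binding proteins and their partners moved in different directions. Of 11 genes of the eIF4 group, Eif4e1b rose, 5 fell (45.5%, against 30.8% of all genes tested) and 5 did not pass. Their median difference was -0.04. Eif4e1b (chromosome 13, 54783998 to 54788459, plus strand) had 61.9, 33.0, 48.4 and 52.2 FPKM in TCC libraries, against 33.0, 28.4, 5.82 and 6.79 FPKM in controls. Controls 3 and 4 were far below the rest, and TCC 2 lay barely above control 1, so that the groups were apart by less than the last digit shown. The difference was 1.68 ± 0.51 (adjusted p = 0.0202). The call was lost without TCC 1 (adjusted p = 0.0564), control 3 (0.0609) or control 4 (0.0624), with no filter on low values (0.067), and against controls 1 and 2 alone, where the difference was 0.62 (adjusted p = 0.164).

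Eif4e, the general cap-binding protein (chromosome 3, 138526179 to 138559696, plus strand), was among the most abundant of the 66 genes. Eif4e had 496, 238, 614 and 504 FPKM in TCC libraries, against 373, 335, 494 and 470.5 FPKM in controls. TCC 2 was the lowest of all 8 libraries and the groups overlapped (0.08 ± 0.32, adjusted p = 0.859). Eif4e1b thus made up 9.99 ± 2.12% of the summed level of the pair in TCC libraries and 4.63 ± 3.85% in controls. These shares overlapped, with controls 1 and 2 (8.12 and 7.81%) above TCC 3 (7.31%). Controls 3 and 4 were far lower, at 1.17 and 1.42%.

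The 5 genes of the eIF4 group that fell differed by -2.004 to -0.65 on the log2 scale. Eif4e2, which encodes a cap-binding relative known as a repressor, averaged 8.82 ± 3.02 FPKM in TCC libraries and 39.1 ± 15.7 FPKM in controls (-2.004 ± 0.36, adjusted p = 0.00112). Eif4a3, the helicase of the exon junction complex, averaged 42.4 ± 2.86 FPKM in TCC libraries and 154 ± 29.5 FPKM in controls (-1.82 ± 0.24, adjusted p = 0.000175). The helicases of initiation itself, Eif4a1 and Eif4a2, did not pass, but without TCC 2 Eif4a1 passed as higher (0.88, adjusted p = 0.0159). The falls of Eif4g1, Eif4g2 and Eif4h were weak, with adjusted p-values of 0.0489, 0.0464 and 0.0316 by limma. The Eif4g1 call was lost when any library other than TCC 2 was left out (adjusted p up to 0.149), that of Eif4g2 without TCC 1, TCC 3, TCC 4, control 2, control 3 or control 4 (up to 0.134), and that of Eif4h without TCC 3, TCC 4, control 3 or control 4 (up to 0.101). All 3 calls were also lost with median-of-ratios scaling (-0.35, -0.63 and -0.64; adjusted p = 0.287, 0.189 and 0.14), with quantile normalization (-0.36, -0.88 and -0.50; adjusted p = 0.243, 0.0604 and 0.22) and against controls 1 and 2 alone (-0.51, -0.66 and -0.45; adjusted p = 0.2, 0.286 and 0.248), in the order Eif4g1, Eif4g2 and Eif4h. With no filter on low values, Eif4g2 (adjusted p = 0.0977) and Eif4h (0.0578) did not pass.

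Of the 4 genes for inhibitors and partners of eIF4E, 3 were tested and Eif4ebp1 fell. Eif4ebp1 (chromosome 8, 27260329 to 27276674, plus strand) encodes the inhibitor that mTORC1 switches off by phosphorylation. Eif4ebp1 had 5.99, 0.732, 3.83 and 6.47 FPKM in TCC libraries, against 30.6, 28.7, 24.7 and 12.4 FPKM in controls. The groups did not overlap, with TCC 2 the lowest and control 4 the nearest to the TCC libraries (-2.38 ± 0.46, adjusted p = 0.00176). Eif4ebp2, a relative, had 1.83, 1.41, 1.97 and 1.46 FPKM in TCC libraries, against 2.38, 1.72, 3.22 and 2.23 FPKM in controls, levels near the filter that overlapped (-0.33 ± 0.22, adjusted p = 0.257). Eif4enif1, which encodes the eIF4E transporter of storage granules, averaged 160.3 ± 58.5 FPKM in TCC libraries and 105 ± 25.2 FPKM in controls (0.57 ± 0.30, adjusted p = 0.154), and passed as higher with median-of-ratios scaling (0.87, adjusted p = 0.0319).

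Most genes for eIF3, the scaffold that holds initiation factors on the small subunit, fell. Of 14 genes, 11 fell, none rose and 3 did not pass, with a median difference of -1.53 beside -0.19 for all genes tested. Of the 8 genes for the core of the complex (a, c, e, f, h, k, l and m) 7 fell, and of the other 6 genes 4 fell. The summed level of eIF3 genes was 386 ± 58.5 FPKM in TCC libraries and 702 ± 262 FPKM in controls (SD, n = 4 each), a ratio of 0.55. In single libraries the sum was 429, 300.4, 416 and 399 FPKM in TCC libraries, against 443, 510.4, 949.5 and 904 FPKM in controls. In this sum, controls 1 and 2 thus lay close above the TCC libraries and controls 3 and 4 far above them. The sum included Eif3i, which did not pass and averaged 178 FPKM in TCC libraries and 110 FPKM in controls. Eif3i therefore narrowed the gap between the groups, and a sum without it was not taken.

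Eif3c (chromosome 7, 126546455 to 126566411, minus strand) encodes a core subunit that contacts eIF1 and eIF5. Eif3c had 10.6, 10.2, 11.5 and 9.81 FPKM in TCC libraries, against 21.9, 36.0, 91.9 and 87.9 FPKM in controls. The TCC libraries were nearly equal and all below the controls (-2.16 ± 0.42, adjusted p = 0.00171). Eif3g (chromosome 9, 20894349 to 20898623, minus strand), an RNA-binding subunit, had 10.8, 3.78, 7.31 and 6.83 FPKM in TCC libraries, against 16.8, 21.1, 62.6 and 57.4 FPKM in controls. The groups again did not overlap, with the wider gap to controls 3 and 4 (-2.16 ± 0.45, adjusted p = 0.00261).

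Eif3f, another core subunit, showed no such step between the controls. Eif3f averaged 5.03 ± 1.98 FPKM in TCC libraries and 19.4 ± 0.58 FPKM in controls (-1.81 ± 0.27, adjusted p = 0.000341), and was the eIF3 gene with the smallest adjusted p. The differences of the other genes that fell ran from -2.10 for Eif3m to -1.03 for Eif3j2, and TCC libraries overlapped controls in Eif3a alone. Against controls 1 and 2 alone, Eif3a, Eif3e, Eif3h and Eif3j2 no longer passed (adjusted p = 0.172, 0.0811, 0.0707 and 0.0534). With median-of-ratios scaling, Eif3a and Eif3j2 did not pass either (0.0532 and 0.0529). Eif3j1 and Eif3j2 are near-identical copies, so their separate levels are uncertain; their sum was 42.2 ± 5.04 FPKM in TCC libraries and 94.5 ± 21.3 FPKM in controls.

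The 3 eIF3 genes that did not pass were Eif3d, Eif3i and Eif3k. Eif3i, a subunit at the edge of the complex, had 204, 113, 200.4 and 193 FPKM in TCC libraries, against 113, 122, 112 and 93.3 FPKM in controls. TCC 2 alone lay among the controls (0.66 ± 0.26, adjusted p = 0.0651), and without that library Eif3i was higher (0.86, adjusted p = 0.00619). Under both other scalings Eif3i was higher too, by 0.96 with median of ratios (adjusted p = 0.00965) and by 0.64 with quantiles (adjusted p = 0.0487). Eif3d, a subunit that can bind the cap, averaged 8.51 ± 2.12 FPKM in TCC libraries and 6.12 ± 1.34 FPKM in controls (0.41 ± 0.26, adjusted p = 0.239), and passed as higher with quantile normalization (0.82, adjusted p = 0.0225). An antisense gene covers 43.3% of its exon bases, so its level is uncertain. Eif3k differed by -0.26 ± 0.36 (adjusted p = 0.598).

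Upstream sequences are shown for the eIF3 genes whose window held an ETS core, 1 of the 2 motifs searched. They are again the 100 bases before the RefSeq start (GRCm38.p6), read on the gene's strand: Eif3c chr7:126566367-126566466, Eif3g chr9:20898591-20898690 and Eif3m chr2:105017028-105017127 on the minus strand, Eif3l chr15:79075123-79075222 on the plus strand, and Eif3d chr15:77970825-77970924 on the minus strand. Capitals mark the ETS core, CCGGAAG or its other strand CTTCCGG, found in 9.93% of 27025 genes within 250 bases before to 50 after the start.
Eif3c: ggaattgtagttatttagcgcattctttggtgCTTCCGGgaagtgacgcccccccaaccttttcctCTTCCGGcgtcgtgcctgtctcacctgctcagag
Eif3g: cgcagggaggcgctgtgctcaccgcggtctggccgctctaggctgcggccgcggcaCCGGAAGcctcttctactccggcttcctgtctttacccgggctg
Eif3m: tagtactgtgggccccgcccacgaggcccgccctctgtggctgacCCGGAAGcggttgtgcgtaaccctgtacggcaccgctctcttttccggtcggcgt
Eif3l: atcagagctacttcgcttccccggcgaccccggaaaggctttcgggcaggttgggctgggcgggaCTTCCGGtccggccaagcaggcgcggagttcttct
Eif3d: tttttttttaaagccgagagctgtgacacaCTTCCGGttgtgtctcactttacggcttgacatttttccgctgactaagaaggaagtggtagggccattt
The core stood at -68 and -34 in Eif3c, -44 in Eif3g, -55 in Eif3m, -35 in Eif3l and -70 in Eif3d, counted at its first base. These were 5 of the 10 eIF3 genes with a window. The E-box stood in 3 others, in Eif3a at position 23 after the start, in Eif3f at -68 and in Eif3k at -44, and was in 8.09% of all genes. Eif3d, which did not fall, had the core as well. RefSeq starts again differ from the GENCODE ones. Of the windows shown, all but that of Eif3d run into the gene as GENCODE places it. Windows were at hand for 10 of 14 eIF3 genes and for 51 of the 66 translation factor genes, too few for a comparison of shares with all genes.

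**Figure D4:**
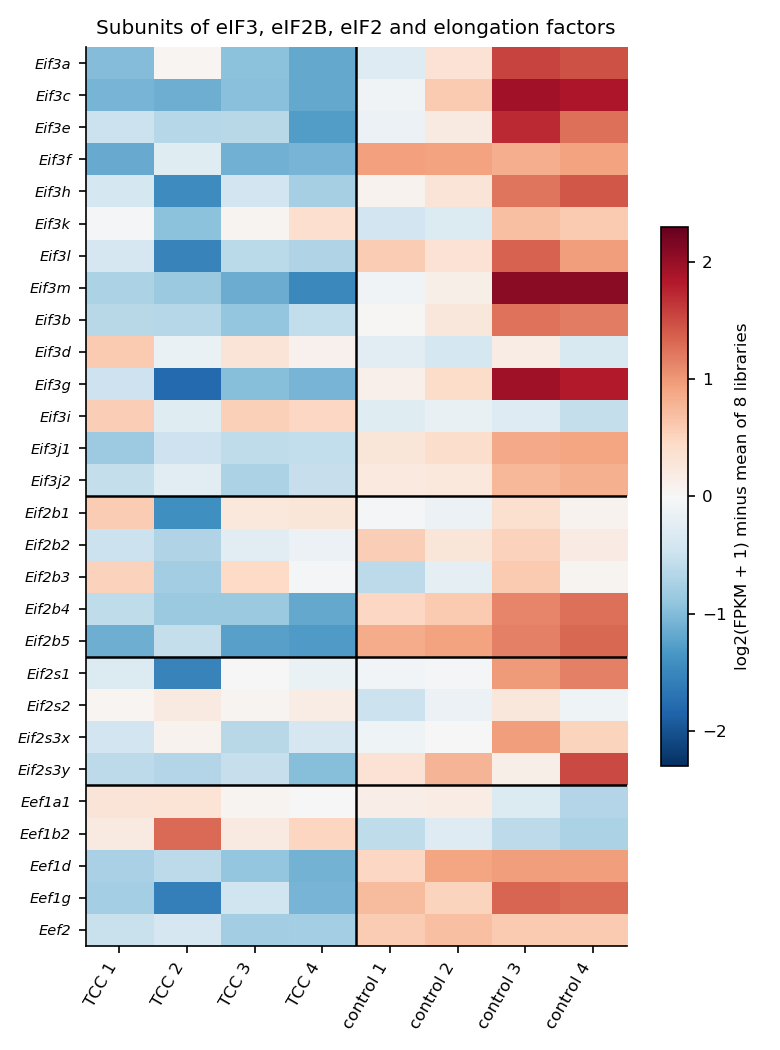
Log2(FPKM + 1) of subunit genes in each library minus the gene's mean over the 8 libraries (red above, blue below), for eIF3, eIF2B, eIF2 and the elongation factors, with 4 TCC libraries left of 4 controls. Most eIF3 genes are blue in all TCC libraries and deepest red in controls 3 and 4, whereas Eif3i, Eif3d and Eef1b2 are not.

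Of the 8 genes for eIF2, eIF5, eIF5B and related factors, 3 fell, none rose and 5 did not pass. The share that fell, 37.5%, was near the 30.8% of all genes tested. Eif5, which triggers GTP hydrolysis by eIF2, averaged 73.5 ± 35.8 FPKM in TCC libraries and 258 ± 65.3 FPKM in controls (-1.87 ± 0.34, adjusted p = 0.00117). Eif2a, a factor for non-canonical initiation that is not a subunit of eIF2, averaged 12.1 ± 3.27 FPKM in TCC libraries and 43.2 ± 18.0 FPKM in controls (-1.70 ± 0.34, adjusted p = 0.00192). Eif2s3y, the Y-linked copy of the eIF2 gamma subunit, averaged 4.41 ± 0.69 FPKM in TCC libraries and 14.2 ± 7.0 FPKM in controls (-1.40 ± 0.32, adjusted p = 0.00469). The sex of the embryos is not in the labels, and reads of Eif2s3y and its X-linked copy may be shared.

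The subunits of eIF2 proper were less clear. Eif2s1, the alpha subunit, averaged 41.2 ± 15.9 FPKM in TCC libraries and 84.1 ± 36.9 FPKM in controls and did not pass (-1.01 ± 0.40, adjusted p = 0.0641), but passed as lower without control 1 (-1.20, adjusted p = 0.0388) or control 2 (-1.19, adjusted p = 0.0478) and against controls 3 and 4 alone (-1.57, adjusted p = 0.0138). Eif2s2, the beta subunit, differed by 0.24 ± 0.24 (adjusted p = 0.454). Eif2s3x, the X-linked gamma subunit, differed by -0.69 ± 0.30 (adjusted p = 0.0853) and passed as lower without TCC 2 (-0.83, adjusted p = 0.0395) and against controls 3 and 4 alone (-1.08, adjusted p = 0.0123).

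In eIF2B, the exchange factor of eIF2, 3 of 5 subunit genes fell. Eif2b5, the catalytic epsilon subunit, averaged 1.84 ± 0.76 FPKM in TCC libraries and 11.1 ± 1.84 FPKM in controls (-2.12 ± 0.26, adjusted p = 0.000145). Eif2b4, the delta subunit, averaged 9.06 ± 1.67 FPKM in TCC libraries and 32.9 ± 8.94 FPKM in controls (-1.73 ± 0.27, adjusted p = 0.000486). Eif2b2 fell by 0.78 ± 0.25 on the log2 scale (adjusted p = 0.0234), a call lost without TCC 1 (0.0595), control 1 (0.051) or control 3 (0.0646), under both other scalings (-0.51 and -0.38; adjusted p = 0.111 and 0.214) and against controls 1 and 2 alone (0.0527). Eif2b1 and Eif2b3 differed by -0.15 and 0.07 and did not pass.

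Of the kinases that phosphorylate eIF2 alpha, Eif2ak4 rose and the other 2 tested did not pass. Eif2ak4 (GCN2, the amino acid sensor; chromosome 2, 118388618 to 118475234, plus strand) had 16.7, 20.8, 22.1 and 17.4 FPKM in TCC libraries, against 11.05, 11.7, 7.98 and 8.75 FPKM in controls. All TCC libraries were above all controls (0.90 ± 0.24, adjusted p = 0.0111), although against controls 1 and 2 alone the difference was 0.70 (adjusted p = 0.0657). Eif2ak1 (HRI, the heme-regulated kinase) had 13.0, 11.9, 11.2 and 14.2 FPKM in TCC libraries, against 15.5, 12.5, 13.9 and 11.9 FPKM in controls, and the groups overlapped (-0.08 ± 0.23, adjusted p = 0.796). Eif2ak3 (PERK, the sensor of the endoplasmic reticulum) had 7.67, 6.13, 17.2 and 21.6 FPKM in TCC libraries, against 12.0, 17.9, 17.5 and 17.7 FPKM in controls. TCC 1 and 2 lay below all controls, TCC 3 within their range and TCC 4 above it (-0.44 ± 0.38, adjusted p = 0.38).

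Elongation factors fell in 3 of 5 tested genes, and Eef1b2 rose. Eef2, the translocase (chromosome 10, 81176631 to 81182498, plus strand), had 12.4, 13.7, 9.93 and 10.1 FPKM in TCC libraries, against 27.6, 29.7, 27.8 and 28.0 FPKM in controls. Both groups were tight and apart, controls 1 to 4 alike (-1.24 ± 0.23, adjusted p = 0.00132). Eef1a1, which delivers aminoacyl-tRNA (chromosome 9, 78478449 to 78489151, minus strand), had 279, 281, 235 and 223 FPKM in TCC libraries, against 250.3, 255, 180.0 and 141 FPKM in controls. The groups overlapped and the difference of 0.33 ± 0.27 did not pass (adjusted p = 0.341), but Eef1a1 was higher against controls 3 and 4 alone (0.66, adjusted p = 0.0415) and under median-of-ratios scaling (0.64, adjusted p = 0.0467). Its many processed copies in the genome make its level uncertain.

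The 3 subunits that recharge eEF1A moved in different directions. Eef1b2 (chromosome 1, 63176825 to 63180486, plus strand) had 42.4, 91.2, 42.6 and 51.7 FPKM in TCC libraries, against 23.9, 29.5, 23.8 and 21.8 FPKM in controls. The groups did not overlap, with TCC 2 the highest (1.11 ± 0.29, adjusted p = 0.00956), but against controls 1 and 2 alone the call was lost (1.00, adjusted p = 0.068). Eef1d averaged 22.2 ± 3.24 FPKM in TCC libraries and 72.2 ± 10.96 FPKM in controls (-1.65 ± 0.24, adjusted p = 0.000315). Eef1g averaged 3.65 ± 1.45 FPKM in TCC libraries and 16.5 ± 4.87 FPKM in controls (-1.93 ± 0.32, adjusted p = 0.000636).

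Among the enzymes that modify elongation factors and their associated protein eEF1E1, 2 of 4 tested genes rose and 2 fell. Eef1e1 (chromosome 13, 38644207 to 38659058, minus strand) encodes an auxiliary component of the multisynthetase complex. Eef1e1 had 136, 115, 140.2 and 137 FPKM in TCC libraries, against 29.3, 38.1, 66.0 and 59.97 FPKM in controls. The TCC libraries were all high (1.497 ± 0.29, adjusted p = 0.00177), and here controls 3 and 4 lay nearer to them than controls 1 and 2. Eef2k, the kinase that inhibits eEF2 (chromosome 7, 120842831 to 120907450, plus strand), had 24.0, 25.6, 34.5 and 40.2 FPKM in TCC libraries, against 24.7, 22.1, 7.07 and 7.21 FPKM in controls. Controls 1 and 2 lay at the level of TCC 1 and 2, and the call (1.16 ± 0.41, adjusted p = 0.0415) was lost without any single TCC library, control 3 or control 4 (adjusted p = 0.0523 to 0.126), and with no filter on low values (0.101). Against controls 1 and 2 alone the difference was 0.37 (adjusted p = 0.4).

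Eef1akmt1 (chromosome 14, 57549597 to 57571612, minus strand), a lysine methyltransferase of eEF1A, had 2.93, 0.653, 1.46 and 1.85 FPKM in TCC libraries, against 8.71, 10.1, 24.9 and 30.7 FPKM in controls. All TCC libraries were low and apart from the controls (-2.73 ± 0.42, adjusted p = 0.000458). Eef1akmt2, a second such enzyme, averaged 3.38 ± 1.65 FPKM in TCC libraries and 8.55 ± 1.13 FPKM in controls (-1.19 ± 0.30, adjusted p = 0.00792), a call lost with quantile normalization (-0.78, adjusted p = 0.0581) and against controls 1 and 2 alone (-1.145, adjusted p = 0.0509).

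The remaining 3 genes were Eif5a, Eif5a2 and Eif6. Eif6, which keeps the large ribosomal subunit from joining too early, averaged 70.3 ± 20.4 FPKM in TCC libraries and 186 ± 54.7 FPKM in controls (-1.40 ± 0.31, adjusted p = 0.00404). Eif5a, the hypusine-bearing factor and the most abundant of the 66 genes by the mean of either group, averaged 522 ± 233 FPKM in TCC libraries and 558 ± 106 FPKM in controls (-0.24 ± 0.39, adjusted p = 0.66). Next by group mean in TCC libraries came Eif1b (502 FPKM), Eif4e (463 FPKM) and Eef1a1 (254 FPKM), and in controls Eif4e (418 FPKM), Eif5 (258 FPKM) and Eif1 (235 FPKM). Eif1b ranked 2 of 66 in TCC libraries and 14 in controls (98.7 FPKM).

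Other genes of translation and its control were counted from lists: 55 of 56 were found in the table, and of the 51 tested 18 fell (35.3%), 4 rose (7.84%) and 29 did not pass, shares near the 30.8% lower and 11.3% higher among all genes tested, beside which the counts of the single lists that follow also stand. Their median difference was -0.31, nearer to that of all genes than that of the translation factors. Among 6 genes of poly(A)-binding proteins and partners, Pabpc1l, the form of oocytes and early embryos, rose and Pabpc1, the general form, fell. Pabpc1l had 66.7, 131, 61.6 and 67.3 FPKM in TCC libraries, against 27.2, 34.6, 4.82 and 3.149 FPKM in controls (2.66 ± 0.63, adjusted p = 0.0058). Pabpc1 had 6.27, 15.002, 12.2 and 10.2 FPKM in TCC libraries, against 43.2, 61.0, 117 and 109.9 FPKM in controls (-2.76 ± 0.37, adjusted p = 0.000206). Neither gene's groups overlapped.

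Of 8 tested genes for the hypusine of eIF5A and the diphthamide of eEF2, 4 fell and 1 rose. Dhps, the first enzyme of hypusine synthesis, averaged 3.00 ± 1.17 FPKM in TCC libraries and 33.8 ± 13.6 FPKM in controls (-3.07 ± 0.33, adjusted p = 7.87e-05). Dohh, the enzyme of its second step, averaged 1.12 ± 0.78 FPKM in TCC libraries and 8.16 ± 3.03 FPKM in controls (-2.11 ± 0.32, adjusted p = 0.000426). Dph2, of the diphthamide pathway, differed by -2.17 ± 0.27 (adjusted p = 0.000141). Among TCC libraries, only TCC 3 reached 1 FPKM for Dohh (2.26 FPKM) and only TCC 2 for Dph2 (1.59 FPKM). Both genes thus passed the filter mainly through the controls, where they were high. Genes let in that way could hardly be called higher, so their p-values and their place among the 4 that fell add little support.

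In the signalling downstream of eIF2 alpha, 3 of 6 tested genes fell. Ppp1r15b, the constitutive partner of the phosphatase that restores eIF2 alpha, averaged 2.63 ± 0.50 FPKM in TCC libraries and 23.7 ± 4.73 FPKM in controls (-2.76 ± 0.25, adjusted p = 4.82e-05). Ppp1r15a, the stress-induced partner, averaged 8.26 ± 2.77 FPKM in TCC libraries and 60.4 ± 12.2 FPKM in controls (-2.76 ± 0.29, adjusted p = 7.05e-05). Atf4, the transcription factor translated when eIF2 alpha is phosphorylated, fell by 0.64 ± 0.24 on the log2 scale (adjusted p = 0.0474).

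Of 7 tested genes of mTORC1 and the S6 and MNK kinases, 4 fell and none rose. Mknk2, a kinase of eIF4E, averaged 3.08 ± 1.13 FPKM in TCC libraries and 11.6 ± 1.43 FPKM in controls (-1.66 ± 0.27, adjusted p = 0.000612). Rps6kb1, an S6 kinase, differed by -1.59 ± 0.30 (adjusted p = 0.00135) and Mtor by -1.31 ± 0.28 (adjusted p = 0.003). Of 9 genes of termination, recycling and rescue, 4 fell and 1 rose, led by Mcts2 (-2.07 ± 0.26, adjusted p = 0.000157), Denr (-1.68 ± 0.28, adjusted p = 0.000741) and Etf1 (-1.03 ± 0.24, adjusted p = 0.0053). Of 7 other cytosolic factors 1 fell, Larp1, which encodes a protein that binds terminal oligopyrimidine (TOP) mRNAs. Larp1 averaged 0.363 ± 0.0707 FPKM in TCC libraries and 3.99 ± 1.92 FPKM in controls (-1.79 ± 0.28, adjusted p = 0.00053 by limma). All its TCC values were below 1 FPKM, so Larp1 passed the filter through the controls alone. A gene chosen in that way could hardly be called higher, and its p-value adds no support.

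Of 12 genes known to give TOP mRNAs, drawn mostly from the elongation and eIF3 genes above, 8 fell and Eef1b2 rose, with a median of -1.53. The 3 that did not pass were Eef1a1, Eif4b and Tpt1.

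**Figure D5:**
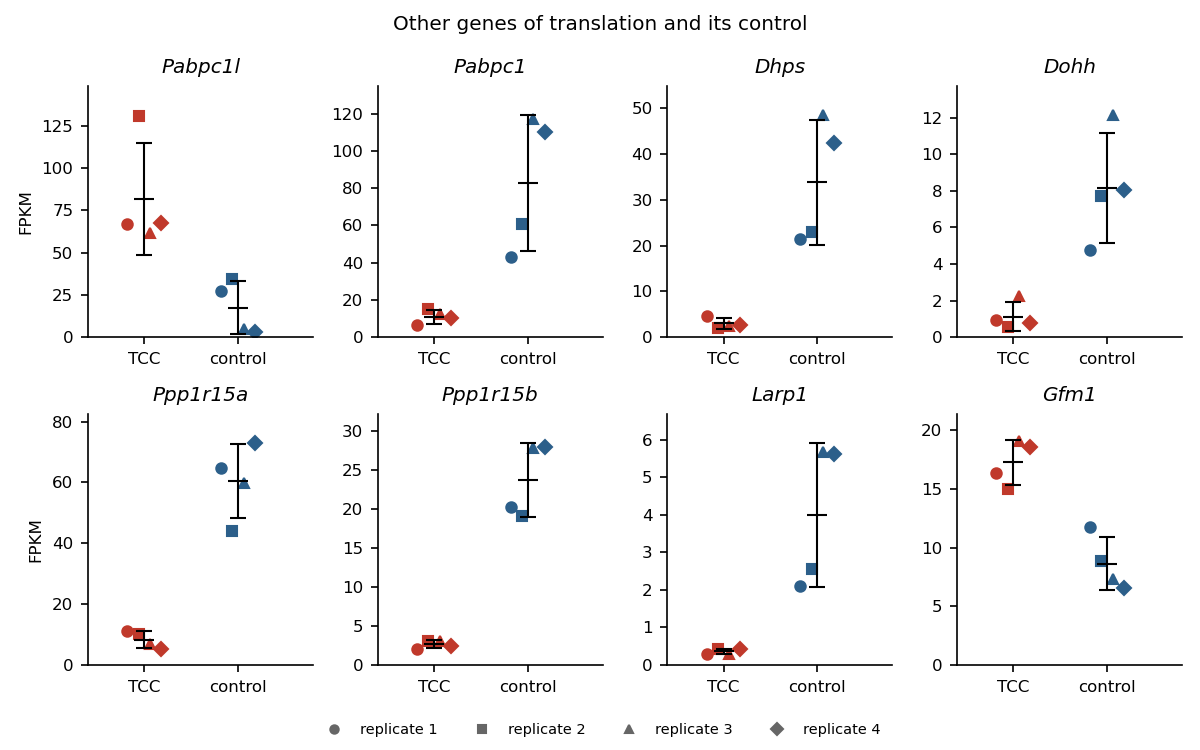
FPKM in each library (points, shaped by replicate) of 8 genes of translation and its control, with TCC libraries in red and controls in blue; lines are means and bars SD (n = 4 each). Pabpc1l (61.6 to 131 FPKM) and Gfm1, a mitochondrial elongation factor, lie higher in TCC libraries, and the other 6 genes lie below all controls.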

How the data were processed

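RNA of 4 TCC and 4 control libraries was sequenced. The labels call it polyA RNA, and their protocols describe 2 library preparations, 1 from total RNA and 1 from preamplified cDNA, without saying which gave these libraries. The authors deposited 1 table of FPKM. The submitters' processing notes name STAR, StringTie, featureCounts, DESeq2 1.30.1 and the build mm10, without roles. Which tool gave the FPKM, with which annotation, strand setting and rule for shared reads, was not given in the sources used here. Counts could not be recovered, so depth was only estimated and no counting interval is given.

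Identifiers were matched to GENCODE M21 (GRCm38) for symbols and 1-based coordinates, for 32620 of 37310 genes. Genes reaching 1 FPKM in 4 or more libraries were tested with limma 3.58.1 (lmFit, eBayes with trend, 6 residual degrees of freedom, R 4.3.3) on log2(FPKM + 1), treatment as the only term, two-sided, with Benjamini-Hochberg adjustment over 12941 genes and a threshold of 0.05. This scale understates changes of low genes. The limma step was tested on simulated data. Paralog ratios were compared by exact permutation, all assignments being listed with numpy 2.4.6 under Python 3.11.15. Motifs were searched on both strands.

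Values in every library are given for the 5 largest rises and 5 largest falls past the threshold whose higher group averaged 5 FPKM or more, for Eif1, Eif1ax, Eif4e, Eef1a1, Eef2 and the tested Eif2ak and Eif4ebp genes; others by role, with up to 3 of the smallest adjusted p. Eif3i and both Pabpc genes were given in full, and members that did not pass were named, after their values were seen. The members, lists and tests were chosen with earlier results of these data known. Alternatives were other pseudocounts (0.1, 5), filters (none, 5 FPKM), scalings, the replicate number as a block, and left-out libraries.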

Additional observations from a re-analysis of the deposited data

Results flagged for a closer look

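In 10 of 122 groups of 4 libraries, 1 library lay far from the other 3 on the log2 scale; about 1 group in 20 would do so by chance. In 7 of the 10 the library was TCC 2, the shallowest. TCC 2 was the lowest TCC library for Eef1e1 (115 FPKM; others 136 to 140.2), Eif2b1 (30.0 FPKM; others 97.1 to 122), Eif3i (113 FPKM; others 193 to 204), Eif4a1 (34.8 FPKM; others 81.4 to 94.2) and Eif5a2 (1.00 FPKM; others 2.88 to 3.150). It was the highest for Eif3f (7.99 FPKM; others 3.86 to 4.198) and Eif4a2 (145 FPKM; others 89.3 to 91.0). Control 1 was the lowest control for Eef1d (55.9 FPKM; others 75.6 to 78.7) and Eif2ak3 (12.0 FPKM; others 17.5 to 17.9), and control 3 was the highest for Eif5a2 (5.41 FPKM; others 2.72 to 3.01).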

How the results depend on the processing

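Direction did not change in any alternative for the 37 genes that passed. The count of higher genes (6) became 10 with median-of-ratios scaling and 2 without controls 3 and 4, and 4 to 7 with single libraries left out; that of lower genes was 26 to 32 with single libraries left out. Without controls 3 and 4, 2 of the 6 higher calls (Eif1b, Eef1e1) and 21 of the 31 lower calls were kept. For the other genes of translation, the higher count (4) became 11 with median-of-ratios scaling, 9 with quantile normalization, 10 without controls 1 and 2, 2 without controls 3 and 4, and 2 to 5 with single libraries left out (2 without TCC 4 or control 4). The lower count (18) became 10 without controls 3 and 4, and 13 to 18 with single libraries left out. The ratio of Eif5a2 to Eif5a (-0.14) turned to 0.053 with a pseudocount of 5 and to 0.28 without controls 3 and 4, and ran from -0.33 to 0.12 with single libraries left out, positive without control 3. The shares of all genes called under each alternative were not counted, and the causes were not tested.

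The sign turned in 13 genes, none past the threshold on either side. With median-of-ratios scaling the differences were 0.30 for Eif4a2, 0.24 for Eif4g3, 0.15 for Eif2b1, 0.20 for Eif2ak1, 0.037 for Eif3k and 0.069 for Eif5a. With quantile normalization they were 0.040 for Eif4ebp2, 0.080 for Eif4a2, -0.22 for Eif4e, 0.37 for Eif4g3, 0.31 for Eif2ak1 and 0.0051 for Eif5a2. Without controls 1 and 2 they were -0.14 for Eif4e, -0.30 for Eif2b3 and 0.22 for Eif4g3; without controls 3 and 4, 0.24 for Eif4a2, -0.19 for Eif2d, 0.0018 for Eif2b1, 0.25 for Eif3k and -0.11 for Eif4b. With single libraries left out they ran from -0.17 to 0.11 for Eif4a2, -0.25 to 0.14 for Eif4g3, -0.14 to 0.37 for Eif2d, -0.11 to 0.35 for Eif2b3, -0.079 to 0.37 for Eif4e, -0.37 to 0.30 for Eif2b1, -0.45 to 0.0087 for Eif3k, -0.46 to 0.19 for Eif5a, -0.031 to 0.22 for Eif4b and -0.038 to 0.34 for Eif5b.

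The labels number the libraries 1 to 4 in both groups. Same-numbered libraries deviated together with correlations of 0.338, 0.053, 0.095 and 0.104. Most libraries correlated best with their own number. The exceptions were TCC 2, highest with control 4 (0.082), and control 2, highest with TCC 1 (0.144). Given these exceptions, the numbers were not taken as pairs in the main fit. With the replicate block, 5 members were higher and 31 lower (Eef2k, adjusted p = 0.0589, and Eif4g1, 0.0787, were lost, and Eif2s1, 0.0196, passed), 6 and 16 of the other translation genes were higher and lower, and no paralog ratio could pass, since the smallest exact sign-flip permutation p is 0.125. Depth was only estimated, so a difference in genes near 1 FPKM may not be detectable here.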

Other observations

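Mitochondria translate with factors of their own. Of 8 such genes tested, Gfm1, an elongation factor, rose, Mtif2, an initiation factor, fell, and 6 did not pass, or 12.5% in each direction, against 11.3% higher and 30.8% lower among all genes tested. Their differences ran from -0.79 to 0.94 on the log2 scale, with a median of 0.10. Gfm1 averaged 17.3 ± 1.92 FPKM in TCC libraries and 8.63 ± 2.29 FPKM in controls (0.94 ± 0.25, adjusted p = 0.011), with no overlap between the groups. Mtif2 averaged 4.43 ± 1.33 FPKM in TCC libraries and 8.46 ± 2.56 FPKM in controls (-0.79 ± 0.29, adjusted p = 0.0459), and its groups overlapped.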
